A study of Rattus norvegicus with 6 samples.

Results

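The 7 genes that encode the subunits of the N-methyl-D-aspartate (NMDA) receptor were examined in the amygdala of rats after acute ethanol. They were taken by gene symbol (Grin1, Grin2a, Grin2b, Grin2c, Grin2d, Grin3a and Grin3b) from the 38445 genes of the count tables, and all 7 passed the filter on low counts. Adult male Sprague Dawley rats (given as Sprague Dawley/WT in the labels) were injected intraperitoneally with saline (control) or with 1 g/kg of ethanol. The amygdala, with its central, medial and basolateral nuclei, was taken 1 h later. The RNA of 2 rats was pooled for each library, so that 6 rats per group gave 3 control and 3 ethanol libraries of stranded mRNA. The libraries held 62576504 to 70755739 reads assigned to genes, and 3 counts corresponded to 0.0424 to 0.0479 CPM (counts scaled to a common library size). The levels that follow are CPM with the libraries also scaled by edgeR's TMM method.

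NMDA receptors are glutamate-gated cation channels that need glutamate together with glycine or D-serine to open and that pass calcium when the membrane is depolarized. Each channel holds the obligatory GluN1 subunit (Grin1), which binds the co-agonist, with GluN2 subunits (Grin2a to Grin2d), which bind glutamate and set the kinetics of the channel, or with GluN3 subunits (Grin3a and Grin3b), which bind glycine and lower calcium permeability. Ethanol inhibits these channels, and in the basolateral amygdala they are required for the synaptic plasticity of fear learning.

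No subunit gene was called as different between the ethanol and control groups. In edgeR's quasi-likelihood test of 18141 genes, the Benjamini-Hochberg adjusted p was 1.0 for each of the 7 genes, and none was called at the threshold of 0.2. The same fit called 0 genes in all, or 0% of those tested, with a smallest adjusted p of 0.818. The absence of a call therefore does not set the subunit genes apart from other genes. At an unadjusted p below 0.05, 0 of the 7 subunit genes passed, against 753 (4.15%) of all genes. Of these, 285 (1.57%) had the higher level in ethanol and 468 (2.58%) in control. The estimated log2 fold changes (ethanol against control) lay above 0 for 6 subunit genes and below 0 for 1. Their median was 0.15, and the median over all genes tested was 0.0064. The 95% interval of the log2 fold change included 0 for all 7 genes, and for 6 of them it stayed within a doubling or halving of the level.

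The third ethanol library stood apart from the others in several markers. The amygdala markers Etv1 (164.0 CPM on average), Prkcd (22.4), Rspo2 (19.4), Nts (11.2) and Crh (2.89) were present in the data. Pmch, the melanin-concentrating hormone precursor of the lateral hypothalamus, was at 206.5 CPM in it and between 2.12 and 14.5 CPM in the other 5 libraries. The other genes on the list of thalamic and hypothalamic markers summed to 274.9 CPM there and to 115.6 to 240.6 CPM elsewhere, and Oxt, Tcf7l2, Lhx9 and Agrp were not highest in it. The oligodendrocyte markers (6 genes, among them Mbp) summed to 9727 CPM in that library and to 3549 to 8379 CPM in the others. Of the markers of the amygdala nuclei (5 of 6 genes in the table), Etv1 (90.4 CPM) and Rspo2 (7.37 CPM) were lowest in that library, while Prkcd (21.4 CPM), Crh (3.07 CPM) and Nts (14.0 CPM) lay within the range of the others. Results for the subunit genes are therefore given with and without the third ethanol library. By the choroid plexus markers, described below, the first and second ethanol libraries stood apart instead. Since the tissue was sequenced in bulk, fewer cells of a type and less RNA per cell cannot be told apart.

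The promoters of the 2 subunit genes with the highest level per kb, Grin1 and Grin2c, are shown because these genes behaved differently across libraries, as described below. Each sequence runs 5′ to 3′ over 300 bases, from 250 bases before the start site to base 50 after it, as RefSeq gives it for GRCr8. That build is not the Rnor_6.0 build of the counts. Both genes lie on the minus strand, Grin1 at chr3:28528705-28529004 and Grin2c at chr10:101005089-101005388. Capitals mark matches, on either strand, to the GC box GGGCGG, the Egr site (GCGGGGGCG or GCGTGGGCG) and TGACG, the core of the cAMP response element.
Grin1: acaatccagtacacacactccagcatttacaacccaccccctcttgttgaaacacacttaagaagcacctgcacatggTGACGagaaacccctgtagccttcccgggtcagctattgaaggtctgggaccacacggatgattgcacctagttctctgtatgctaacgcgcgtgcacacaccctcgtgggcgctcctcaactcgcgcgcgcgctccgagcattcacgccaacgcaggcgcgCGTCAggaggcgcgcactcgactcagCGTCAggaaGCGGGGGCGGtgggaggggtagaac
Grin2c: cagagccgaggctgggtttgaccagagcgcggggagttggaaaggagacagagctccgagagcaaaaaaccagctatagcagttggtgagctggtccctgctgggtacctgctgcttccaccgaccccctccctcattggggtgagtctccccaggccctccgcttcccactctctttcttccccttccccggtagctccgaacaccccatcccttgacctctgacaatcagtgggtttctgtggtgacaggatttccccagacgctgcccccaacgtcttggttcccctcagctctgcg

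In the Grin1 window, with the start site as base 1, an Egr site began at base 26 and overlapped the GC box, which began at base 30. TGACG began at base -172 on the gene's strand, and matches on the opposite strand began at bases -10 and 17. The Grin2c window held 0 matches to these words, as did the windows of Grin2d and Grin3a. Among the 33469 rat promoters of the same length, 33.1% held the GC box, 3.2% the Egr site and 21.2% TGACG. The E box CACGTG (6.42% of promoters) and TATAAA (14.2%) were also searched and were in none of the 4 windows. The Grin1 window held 25 CpG dinucleotides, against 11 in Grin2c, 11 in Grin2d, 17 in Grin3a and a median of 7 over all promoters. A match describes the letters only, and no entry was found for Grin2a, Grin2b and Grin3b.

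Grin1 (NCBI gene 24408; Rnor_6.0 chromosome 3, 2507745 to 2534664, minus strand; 21 exonic blocks, 6.245 kb of exon) gives every NMDA receptor its GluN1 subunit. Its level in the control libraries was 417.7, 517.6 and 419.2 CPM, and in the ethanol libraries 501.5, 509.3 and 427.8 CPM. The groups overlapped, because the second control library was the highest of the 6 and the third ethanol library lay near the other controls. The means were 451.5 ± 57.3 CPM for control and 479.5 ± 45.0 CPM for ethanol (SD, n = 3 each). The log2 fold change was 0.087 with a standard error of 0.11 and a 95% interval from -0.18 to 0.35. Without the third ethanol library it was 0.16, and its interval from -0.083 to 0.41 still included 0.

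Grin2a (24409; chromosome 10, 5707806 to 6123568, plus strand; 16 exonic blocks, 9.319 kb) encodes GluN2A, the subunit that gives receptors with fast decay and that becomes prominent as synapses mature. It was measured at 35.8, 56.0 and 39.5 CPM in the control libraries and at 48.2, 61.4 and 35.9 CPM in the ethanol libraries. Both groups spanned nearly the same range, and both held a library well above the rest. With a coefficient of variation of 24.5% in control and 26.3% in ethanol, Grin2a was the most variable member within the control group. The means were 43.8 ± 10.7 and 48.5 ± 12.8 CPM (SD, n = 3 each), and the log2 fold change was 0.15, with a standard error of 0.22 and a 95% interval from -0.36 to 0.66. Without the third ethanol library the log2 fold change was 0.32, with an interval from -0.14 to 0.79. It was 0.36 without the second control library and -0.058 without the second ethanol library, so its sign rested on single libraries.

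Grin2b (24410; chromosome 4, 169541620 to 170000216, minus strand; 17 exonic blocks, 18.147 kb) encodes GluN2B, which gives receptors with slower decay and carries a binding site for CaMKII in its tail. The control libraries held 115.8, 158.4 and 136.3 CPM, and the ethanol libraries 168.2, 180.0 and 117.0 CPM. The first and second ethanol libraries were the highest of the 6, whereas the third was next to the lowest, so the groups overlapped. The means were 136.8 ± 21.3 and 155.0 ± 33.5 CPM (SD, n = 3 each), and the log2 fold change was 0.18, with a standard error of 0.17 and a 95% interval from -0.22 to 0.58. Without the third ethanol library it was 0.35, with an interval from 0.057 to 0.64. That fit gave an unadjusted p of 0.0256 and an adjusted p of 0.496 (edgeR quasi-likelihood, Benjamini-Hochberg), so that Grin2b was not called there either.

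Grin2c (24411; chromosome 10, 103798290 to 103816923, minus strand; 16 exonic blocks, 4.929 kb) encodes GluN2C, a subunit of receptors with weak magnesium block that is found in cerebellar granule cells and, in the forebrain, largely in astrocytes and some interneurons. Its level was 99.5, 103.9 and 109.2 CPM in control and 103.3, 101.9 and 107.9 CPM in ethanol. All 6 libraries fell within a narrow band, and the highest exceeded the lowest 1.10-fold. The means were 104.2 ± 4.85 and 104.4 ± 3.11 CPM (SD, n = 3 each). The log2 fold change was 0.0025, with a standard error of 0.058 and a 95% interval from -0.13 to 0.14, which was the narrowest of the 7. On the linear scale, that interval ran from 0.912-fold to 1.10-fold. The log2 fold change was -0.021 without the third ethanol library and -0.037 without the first control library.

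Grin2d (24412; chromosome 1, 101819068 to 101859146, minus strand; 13 exonic blocks, 11.034 kb) encodes GluN2D, which gives receptors with very slow decay and is found in interneurons and the diencephalon. It was measured at 28.9, 27.3 and 23.1 CPM in control and at 25.2, 25.9 and 26.4 CPM in ethanol. The ethanol libraries lay close together, inside the range of the controls. The means were 26.4 ± 2.96 and 25.8 ± 0.624 CPM (SD, n = 3 each), and the log2 fold change was -0.032, with a standard error of 0.089 and a 95% interval from -0.24 to 0.18. It was -0.048 without the third ethanol library and 0.028 without the first control library.

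Grin3a (191573; chromosome 5, 64928620 to 65073012, minus strand; 8 exonic blocks, 3.217 kb) encodes GluN3A, which reduces calcium entry and is known from immature synapses. The control libraries held 32.8, 34.1 and 30.4 CPM and the ethanol libraries 40.6, 37.3 and 32.0 CPM. The first and second ethanol libraries lay above every control, and the third lay between the controls. The means were 32.4 ± 1.87 and 36.7 ± 4.34 CPM (SD, n = 3 each), and the log2 fold change was 0.18, with a standard error of 0.096, a 95% interval from -0.046 to 0.40 and an unadjusted p of 0.104 by the edgeR quasi-likelihood test. Without the third ethanol library it was 0.27, with an interval from 0.088 to 0.44. The unadjusted p of that fit was 0.00967 and the adjusted p 0.410 (edgeR quasi-likelihood, Benjamini-Hochberg).

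Without the third ethanol library, 0 of the 7 subunit genes were called, against 83 of 18356 genes (0.452%). Grin2b and Grin3a passed an unadjusted p of 0.05 with ethanol higher, as did 4.48% of all genes, and 8.87% passed in either direction. The median log2 fold change of the 7 genes was then 0.27, that of all genes was -0.0038, and 5 subunit genes lay above 0. The library left out was chosen after its marker values were known, and 2 ethanol libraries remained in this fit. In these 2, the choroid plexus markers summed to 13.4 and 14.7 CPM, against 524.0 to 1135 CPM in control. The part of this difference in the subunit levels was not tested.

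Grin3b (170796; chromosome 7, 12764993 to 12771310, plus strand; 10 exonic blocks, 3.164 kb) encodes GluN3B, known mainly from motor neurons of the spinal cord and brainstem. It was close to the floor of the measurement, with 15, 15 and 15 counts in the control libraries and 17, 18 and 31 counts in the ethanol libraries. Scaled by library, these were 0.229, 0.211 and 0.237 CPM against 0.265, 0.280 and 0.445 CPM. All ethanol libraries lay above all controls, which made Grin3b the only subunit gene of the 7 whose groups did not overlap. Over all genes, 3.65% did not overlap with ethanol higher and 5.19% with ethanol lower. Counting error alone gives a coefficient of variation of 18.0 to 25.8% at these counts, while the 3 controls varied by 5.80%. The log2 fold change was 0.55, with a standard error of 0.29, a 95% interval from -0.12 to 1.22 and an unadjusted p of 0.0948 (edgeR quasi-likelihood). It was 0.27 (interval -0.38 to 0.93) without the third ethanol library, which held the 31 counts. The annotated exons of Grin3b share 72 bases with Tmem259 on the opposite strand, and the counts were strand-specific.

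**Figure D1:**
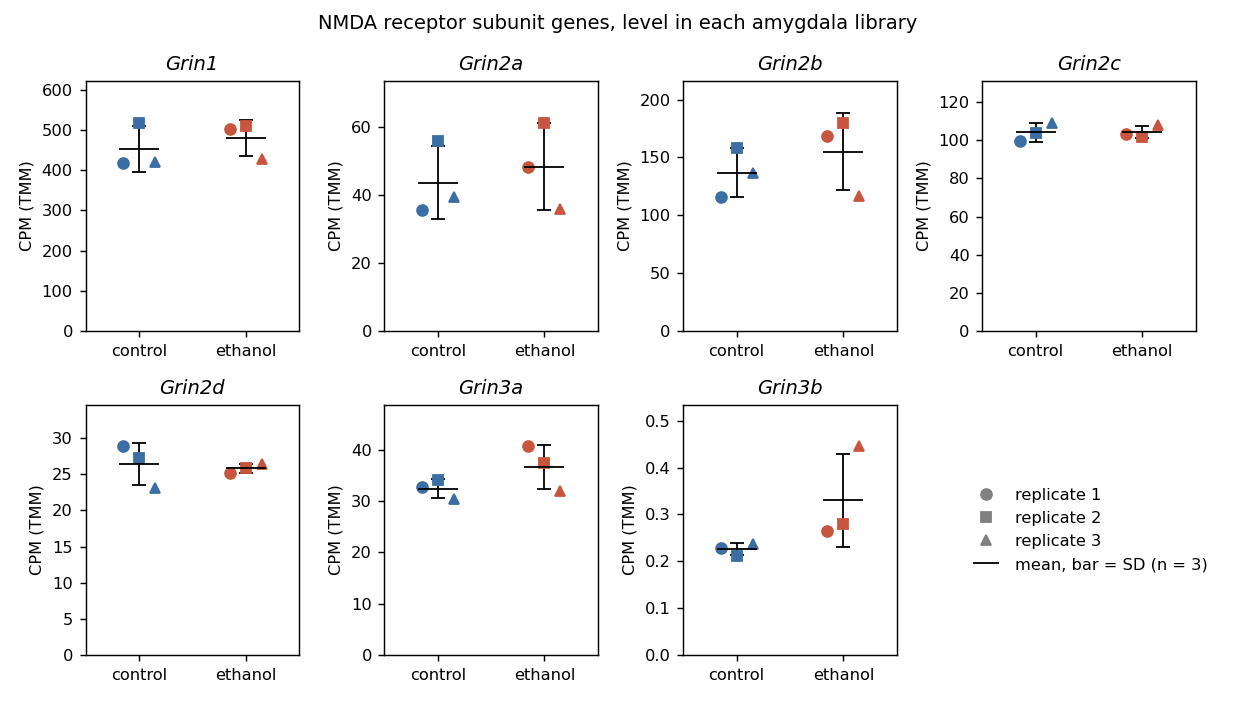
Level of each of the 7 NMDA receptor subunit genes in CPM (TMM-scaled, y axes from 0), with 3 control libraries in blue and 3 ethanol libraries in red, the mean as a horizontal line and the SD as a bar. The groups overlap for every gene except Grin3b, which lies below 0.5 CPM, and Grin2c shows the least spread.

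**Figure D2:**
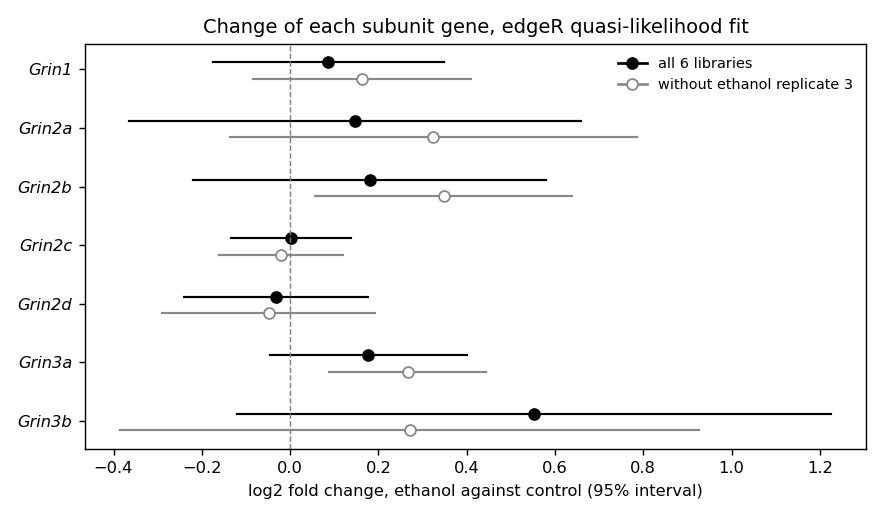
Log2 fold change (ethanol against control) of the 7 subunit genes from edgeR's quasi-likelihood fit with its 95% interval, for all 6 libraries (black) and without the third ethanol library (open grey). With all libraries each interval includes 0, and without that library the intervals of Grin2b and Grin3a lie above 0.

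The levels of the 7 genes were compared with each other as CPM per kb of annotated exon, averaged over the 6 libraries. Grin1 was highest at 74.5 CPM per kb, followed by Grin2c at 21.2, Grin3a at 10.7, Grin2b at 8.04, Grin2a at 4.95, Grin2d at 2.37 and Grin3b at 0.0878. Grin1 exceeded Grin2c 3.51-fold. The ranges over libraries overlapped only between Grin3a and Grin2b, which differed 1.35-fold, and between Grin2b and Grin2a, which differed 1.64-fold. Even so, each neighbouring pair kept its order in 6 of 6 libraries. In CPM, which is not corrected for length, Grin2b at 145.9 CPM stood above Grin2c at 104.3 CPM and Grin2a above Grin3a. The order therefore depends on the annotated exon lengths, which ran from 3.164 kb for Grin3b to 18.147 kb for Grin2b.

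Among the Grin2 genes, which encode the subunits that bind glutamate, Grin2c made up 59.2 ± 3.62% of the summed CPM per kb in control and 57.1 ± 5.64% in ethanol (SD, n = 3 each). Grin2b made up 21.0 ± 1.74% and 22.8 ± 3.59%, Grin2a 13.0 ± 2.30% and 13.8 ± 2.77%, and Grin2d 6.73 ± 1.07% and 6.31 ± 0.544%. The shares of each gene overlapped between the groups. By counts, without the length correction, Grin2b was the largest share (43.8 ± 2.26% in control and 46.1 ± 4.63% in ethanol) and Grin2c came next, at 33.7 ± 3.12% and 31.7 ± 5.21%. The third ethanol library had the highest share of Grin2c (63.3% of the CPM per kb) and the lowest shares of Grin2a (11.1%) and Grin2b (18.6%).

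**Figure D3:**
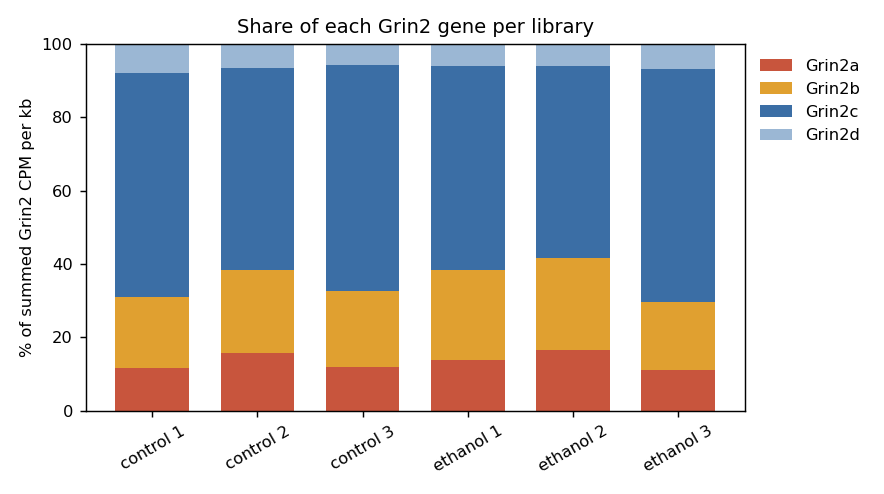
Share of Grin2a, Grin2b, Grin2c and Grin2d in the summed CPM per kb of the Grin2 genes (%), as a stacked bar for each of the 6 libraries. Grin2c is the largest share in every library, between 52.3% and 63.3%, and the bars of the control and ethanol libraries overlap in composition.

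Ratios of subunit genes within a library do not depend on how libraries are scaled, and 5 of them were compared by a 2-sided exact permutation test, which cannot give a p under 0.1 with 3 libraries against 3. The ratio of Grin2b to Grin2a, which shifts during development, was 1.66, 1.45 and 1.77 in control and 1.79, 1.51 and 1.67 in ethanol (per kb). These values were interleaved, and the log2 difference was 0.027 (exact permutation p = 0.7). Grin2c to Grin2a was 4.66 ± 0.997 in control and 4.29 ± 1.29 in ethanol (SD, n = 3 each), with a log2 difference of -0.14 (exact permutation p = 0.7). Grin2d to Grin2a was 0.529 ± 0.138 and 0.474 ± 0.136, with a log2 difference of -0.17 (exact permutation p = 0.6). The ratio of Grin3a to Grin1 was 0.140 ± 0.0122 and 0.148 ± 0.00793, with a log2 difference of 0.082 (exact permutation p = 0.4). All Grin2 genes together stood at 0.497 ± 0.0373 of Grin1 in control and at 0.486 ± 0.0178 in ethanol, with a log2 difference of -0.030 (exact permutation p = 0.7). After Benjamini-Hochberg adjustment over the 5 ratios, each of these exact p-values was 0.7.

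Within both groups, Grin1, Grin2a and Grin2b were high and low in the same libraries. All 3 genes lay above their 6-library mean in the second control library and in the first and second ethanol libraries, and below it in the other 3 libraries. For Grin2a the deviation ran from -0.33 log2 units in the first control library to 0.44 in the second ethanol library, and for Grin2b from -0.31 to 0.32 in the same libraries. Grin1 varied less, from -0.15 to 0.16. Grin2c stayed between -0.067 and 0.067 and was highest in the third library of each group, where Grin1, Grin2a and Grin2b were below their means.

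Over the 6 libraries, Grin2a and Grin2b correlated with a Pearson r of 0.940 (exact permutation p = 0.0181) and a Spearman rho of 0.943 (exact permutation p = 0.0167). Grin1 and Grin2a correlated with an r of 0.938 (exact permutation p = 0.0264) and a rho of 0.886 (exact permutation p = 0.0333). For Grin1 and Grin2b, r was 0.902 (exact permutation p = 0.0736) and rho was 0.771 (exact permutation p = 0.103). Adjusted over the 21 pairs of subunit genes, the p-values of r for these pairs were 0.277, 0.277 and 0.331, and those of rho were 0.35, 0.35 and 0.715, so none passed the correction. Without the 2 libraries farthest from the median of the first gene of the pair, r over the other 4 was 0.994 for Grin2a with Grin2b, 0.902 for Grin1 with Grin2a and 0.916 for Grin1 with Grin2b. Grin2c gave an r of -0.31 with Grin1, -0.28 with Grin2a and -0.19 with Grin2b. By the same omission these were -0.99, -0.027 and -0.98 over 4 libraries, so that the values for Grin2c depended on which libraries entered. These coefficients run over control and ethanol libraries together, with 3 libraries in each group too few to give them within a group.

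Many other genes shared this profile. Of 14174 named genes with a mean of at least 1 CPM, 653 had an r of 0.9 or more with Grin1, 899 with Grin2a and 788 with Grin2b. The genes most like Grin1 were Nlgn2 (neuroligin 2, an adhesion protein of inhibitory synapses), with an r of 0.994, Nol6 (0.992) and Pam (0.992). For Grin2a they were Ncdn (neurochondrin) at 0.996, Acvr1c at 0.996 and Cs (citrate synthase) at 0.995, and for Grin2b Syt7 (synaptotagmin 7, a calcium sensor) at 0.999, Aplp2 at 0.998 and Osbpl11 at 0.997. They were picked as the highest of all genes over 6 libraries, which share depth and dissection, and are given as a description.

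Marker genes of several cell types differed between the same libraries. The markers of cortical-type glutamatergic neurons (8 genes, led by Slc17a7, a vesicular glutamate transporter, and Camk2n1) summed to 993.2, 1394 and 1199 CPM in control and to 1364, 1624 and 1073 CPM in ethanol. Their mean log2 deviation was highest in the second ethanol library (0.48) and lowest in the third (-0.43), and Grin2a and Grin2b were also highest in the second ethanol library. Not every marker followed, and Camk2n1 was highest in the third ethanol library (474.5 CPM) and lowest in the second control library (351.8 CPM). The log2 fold change was above 0 for all 8 of these markers, with a median of 0.15 with all libraries and of 0.37 without the third ethanol library. Tbr1, a transcription factor of these neurons, was the only marker on the list with an unadjusted p below 0.05 (log2 fold change 0.55, edgeR quasi-likelihood adjusted p = 0.818). Of all genes, 1.57% passed that p with ethanol higher. Tbr1 was called without the third ethanol library (log2 fold change 0.59, edgeR quasi-likelihood adjusted p = 0.109), as were 0.452% of all genes. The pan-neuronal markers were 9 genes, led by Map2 and Snap25, with Eno2 under 1 CPM. They summed to 7314 to 7978 CPM in control and to 7080 to 8724 CPM in ethanol. Their sum was highest in the second and lowest in the third ethanol library. Their mean log2 deviation, however, was lowest in the third control library (-0.14, against -0.12 in the third ethanol library). Map2 was lower in the second ethanol library (1994 CPM) than in the third (2024 CPM).

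The markers of thalamic and hypothalamic neurons (8 genes, led by Slc17a6 and Pmch, with Agrp under 1 CPM) ran the opposite way, at 246.6, 129.0 and 196.6 CPM in control and 162.0, 118.1 and 481.4 CPM in ethanol. Their sum was lowest in the second library of each group, where Grin2a was highest. Single markers differed, and Lhx9 was highest of all libraries in the second control library (25.6 CPM). Pmch, Lhx9 and Hcrt were lower in the first ethanol library than in the second. The summed level of the striatal-type GABA neuron markers (8 genes, led by Penk and Ppp1r1b) ranged from 319.8 to 482.8 CPM in control and from 361.8 to 517.8 CPM in ethanol. That of the GABA neuron markers (6 genes, led by Gad1 and Gad2) ranged from 684.2 to 907.5 and from 699.2 to 795.7 CPM, with 0 of 6 log2 fold changes above 0. The interneuron markers (6 genes, led by Sst and Cck) summed to 367.0 to 439.2 CPM in control and 361.9 to 458.2 CPM in ethanol. Of these, Lhx6 was lower in ethanol without overlap of the groups (log2 fold change -0.26, edgeR quasi-likelihood unadjusted p = 0.031, not called). At an unadjusted p below 0.05, 2.58% of all genes were lower in ethanol. The part of these differences in neuronal makeup in the levels of Grin1, Grin2a and Grin2b was not tested.

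Astrocyte markers (8 genes, led by S100b and Aqp4) summed to 6717, 6212 and 7657 CPM in control and to 6492, 6459 and 8728 CPM in ethanol. Their sum was highest in the third library of each group, as was Grin2c. Single markers differed, with Slc1a2 at 291.5 CPM in the second control library and 277.8 CPM in the third. Slc1a3 was at 1280 CPM in the first ethanol library and 1249 CPM in the third. The microglia markers (6 genes, led by Csf1r and P2ry12) summed to 219.2 to 243.2 and 221.5 to 259.0 CPM. The endothelial markers (5 genes, led by Flt1 and Cldn5) summed to 162.7 to 183.6 and 160.0 to 180.2 CPM. Within these lists, the groups did not overlap for Tmem119 (log2 fold change 0.57, edgeR quasi-likelihood unadjusted p = 0.0068) and Kdr (-0.43, unadjusted p = 0.010). Neither was called. Of all genes, 1.57% passed an unadjusted p of 0.05 with ethanol higher and 2.58% with ethanol lower. The choroid plexus markers (10 genes, led by Ttr and Clic6, with Otx2 under 1 CPM) summed to 524.0, 1135 and 898.9 CPM in control and to 13.4, 14.7 and 486.4 CPM in ethanol. The first and second ethanol libraries had the 2 highest levels of Grin2b and of Grin3a, and the least choroid plexus RNA. The second control library had the most choroid plexus RNA. It also had the highest level of Grin1 (517.6 CPM) and the next highest levels of Grin2b (158.4 CPM) and Grin3a (34.1 CPM). The ependymal and ciliary markers (7 genes tested, led by Foxj1 and Cfap43) summed to 48.6 to 68.8 CPM in control and 37.9 to 40.9 CPM in ethanol. At an unadjusted p below 0.05, 5 of the 9 choroid plexus markers tested and 6 of these 7 were lower in ethanol, against 2.58% of all genes, and none was called with all libraries. When the third ethanol library was left out, 8 of the 9 choroid plexus markers were called, all lower in ethanol, against 0.311% of all genes, and the median log2 fold change of the 9 was -3.81. The part of these cell types in the subunit levels was not tested.

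**Figure D4:**
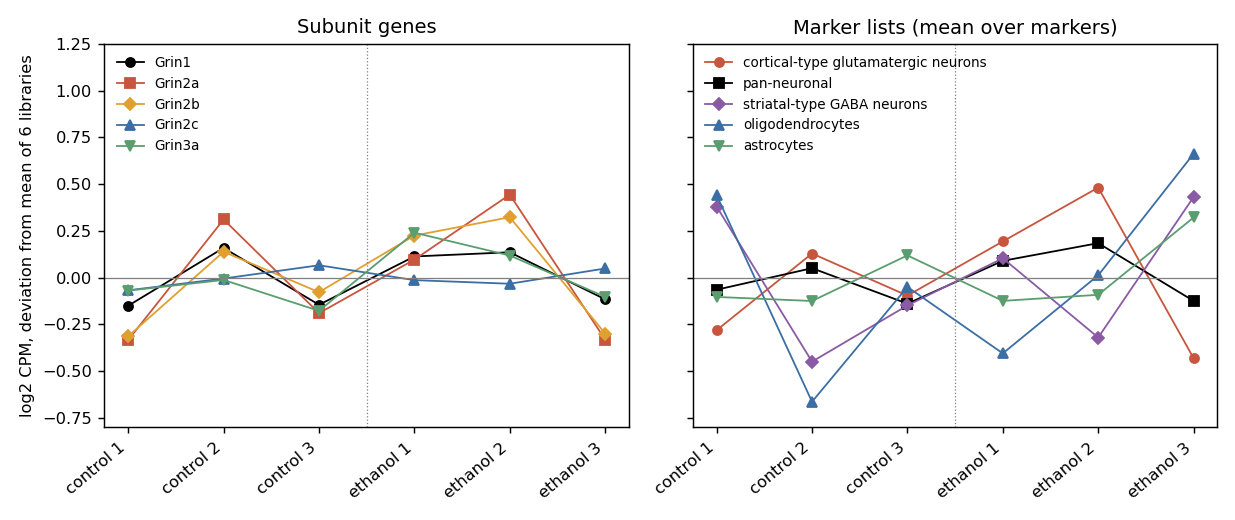
Left, log2 CPM of Grin1, Grin2a, Grin2b, Grin2c and Grin3a in each of the 6 libraries as a deviation from the gene's 6-library mean, and right, the mean deviation of the markers of 5 cell classes on the same axis. Lines only join the values of a gene or list. Grin2a and Grin2b are high where the mean of the cortical-type glutamatergic markers is high, and low in the third ethanol library. Grin2c stays near 0.

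The proteins that anchor, modify and move NMDA receptors were described from 5 lists with 52 genes, all of them tested. None was called, and 0 had an unadjusted p below 0.05, against 4.15% of all genes. In the fit without the third ethanol library, 6 of the 52 passed that p, and none was called. Of all genes, 8.87% passed in either direction and 4.48% with ethanol higher. The 6 genes were the scaffolds Dlg3 and Dlgap3, the kinases Ptk2b and Camk2a, and Ppp3ca and Ppp3cb, which encode the catalytic subunits of calcineurin. All had a higher level in ethanol. With all libraries, the log2 fold change was above 0 for 40 and below 0 for 12, with a median of 0.056, against 0.0064 and 52.6% above 0 for all genes tested. With libraries scaled by size alone, the median of the 52 genes was 0.029 and that of all genes -0.020. The groups did not overlap for 2 of the 52 genes, Lin7b and Gipc1, both with ethanol higher, which is close to the 3.65% over all genes.

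Among the scaffolds of the postsynaptic density (12 genes), all 12 log2 fold changes were above 0, from 0.0029 to 0.15, with a median of 0.076. Dlg4, which encodes PSD-95 and binds the tails of GluN2 subunits, was at 940.8 ± 15.3 CPM in control and 968.2 ± 55.3 CPM in ethanol (SD, n = 3 each; log2 fold change 0.041). Shank1, which links these complexes to the actin cytoskeleton, was at 501.4 ± 32.4 and 556.0 ± 26.5 CPM (log2 fold change 0.15). Of the kinases and phosphatases (12 genes), 9 lay above 0, with a median of 0.075. Camk2a, the alpha subunit of the kinase that binds GluN2B, was at 757.3 ± 72.6 and 846.8 ± 75.8 CPM (log2 fold change 0.16), and Camk2b at 754.6 ± 85.4 and 806.0 ± 67.5 CPM (log2 fold change 0.095).

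The trafficking and auxiliary proteins (12 genes) were split, with 7 above 0 and a median of 0.028, or of 0.0013 with libraries scaled by size alone. Ap2m1, a subunit of the clathrin adaptor, had a log2 fold change of 0.064, and Snx27, a sorting nexin that returns receptors to the membrane, had -0.023. Of the calcium effectors (7 genes), 6 lay above 0 with a median of 0.084 and Calm2, which encodes calmodulin, at a log2 fold change of 0.052. Of the genes that supply or clear the co-agonists glycine and D-serine (9 genes), 6 lay above 0 with a median of 0.054. Slc6a9, the glycine transporter GlyT1, was at 120.8 ± 17.4 and 130.4 ± 32.1 CPM, and Phgdh, the first enzyme of serine synthesis, had a log2 fold change of 0.058. The largest value on any of the 5 lists, 1.07, was that of Dao (D-amino acid oxidase), which was under 1 CPM in all libraries and overlapped between groups. Without the third ethanol library, the median was 0.094 over the 52 genes and -0.088 over the co-agonist genes.

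The genes of the other ionotropic glutamate receptors also stayed under the threshold. Over the 4 AMPA receptor genes, the median log2 fold change was 0.040, with Gria1 at 0.00091 and Gria2 at 0.024. The 5 kainate receptor genes had a median of -0.015, with Grik2 at -0.015 and Grik5 at 0.064. The delta receptor gene Grid1 had 0.090. Of the AMPA and kainate receptor genes and Grid1, 0 passed an unadjusted p of 0.05 with all libraries, against 4.15% of all genes. Gria3 did so without the third ethanol library, at a log2 fold change of 0.33 (edgeR quasi-likelihood adjusted p = 0.267). In that fit 8.87% of all genes passed in either direction and 4.48% with ethanol higher. The difference between the NMDA receptor genes and the other receptor families was not tested.

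Activity-regulated genes (10 genes), whose transcription follows calcium entry through NMDA receptors and other channels, gave log2 fold changes with a median of 0.29, of which 9 were above 0. None was called, and 2 had an unadjusted p below 0.05, both higher in ethanol, against 1.57% of all genes. With the third ethanol library left out, 5 of the 10 passed that p with ethanol higher, against 4.48% of all genes. Egr2 was called in that fit (log2 fold change 0.62, edgeR quasi-likelihood adjusted p = 0.183), as were 0.452% of all genes. Egr1, a zinc finger transcription factor, was at 56.4, 51.6 and 45.1 CPM in control and at 69.6, 59.4 and 64.3 CPM in ethanol, so that the groups did not overlap. Its log2 fold change was 0.34 with a standard error of 0.096 (unadjusted p = 0.00834, adjusted p = 1.0, edgeR quasi-likelihood). Junb, a subunit of the AP-1 factor, had 0.32 with a standard error of 0.11 (unadjusted p = 0.0238, adjusted p = 1.0, edgeR quasi-likelihood), and its groups overlapped. Egr3, the most abundant gene of the list, was at 75.4 and 84.2 CPM on average, with a log2 fold change of 0.16.

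**Figure D5:**
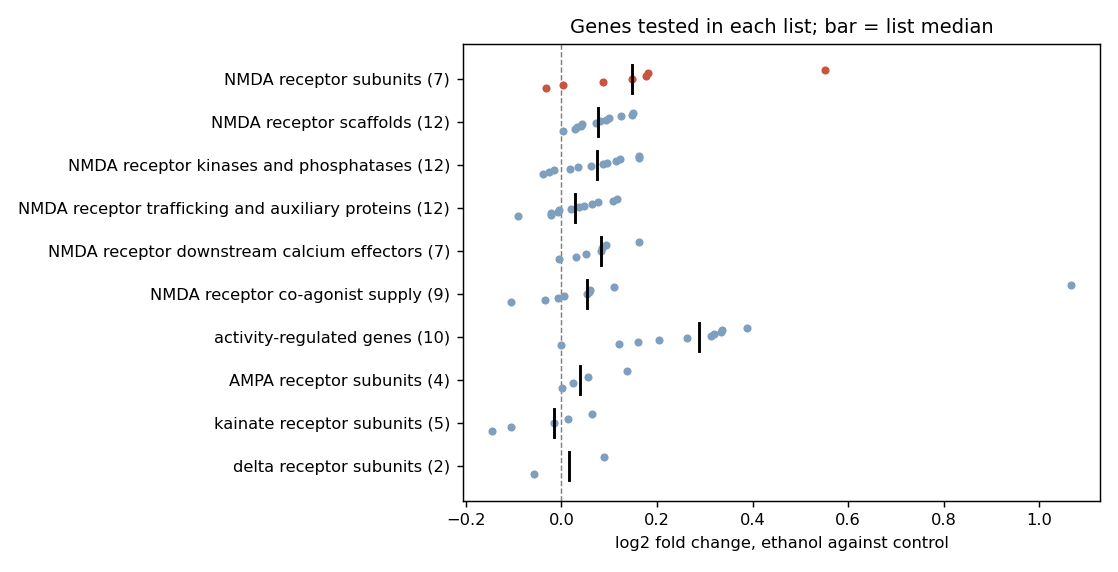
Log2 fold change (ethanol against control, edgeR) of each gene tested on the list of NMDA receptor subunits (red) and on 9 other lists (blue), with the list median as a black bar and the number of genes in brackets. Most genes lie between -0.2 and 0.4, the exceptions being Grin3b at 0.55 and Dao at 1.07, and no gene was called.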

How the data were processed

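RNA-seq had been carried out on 6 amygdala libraries, each a pool of 2 rats. The authors aligned single-end reads with STAR 2.7.0f to Rnor_6.0 and deposited raw counts per gene, which featureCounts 1.6.3 had assigned by exon with the reverse-stranded setting (2), leaving out reads that aligned to several places. Symbols were matched by NCBI gene ID for 29322 of 38445 genes, and 9123 stayed without a symbol. Accessibility, behavioral and qPCR experiments were not analysed here.

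The counts were modelled with edgeR 4.0.16 under R 4.3.3. Its filterByExpr function, with default minimums of 10 counts and of 15 over all libraries, kept 18141 genes. Libraries were scaled by TMM (factors 0.976 to 1.01), and the groups were compared by its quasi-likelihood F test. Genes were called at a Benjamini-Hochberg adjusted p below 0.2, the threshold of the study. At that threshold the study itself reported differentially expressed genes, whereas the fit used here called 0 genes. The standard error was the absolute log2 fold change divided by the square root of F. CPM values are TMM-scaled, log2 CPM carries a prior count of 2, and exon lengths are those of the counting annotation. Ratios within a library were compared by exact permutation. The procedure was tested on simulated counts.

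The subunit genes, gene lists and markers were chosen with earlier results of these data known. Named were all 7 members, the 2 most abundant genes of each list, those with an unadjusted p below 0.05, and the 3 genes most like Grin1, Grin2a and Grin2b. A few genes that this rule takes are not reported here. Lin7b, Gipc1, Dao, Tbr1, Lhx6, Tmem119, Kdr, Eno2, Agrp, Otx2, Slc1a2 and Slc1a3 were named after their values were seen. So were the less abundant amygdala, thalamic and hypothalamic markers and the genes passing only without the third ethanol library. The libraries of a group hold different rats, and their counts differed by more than sampling noise (chi-square per degree of freedom 14.3 to 67.6), so each counted as a replicate. The p-values measure the spread between such pools. Alternatives were DESeq2 1.42.0, limma-voom 3.58.1, edgeR's likelihood ratio test, other scalings, no filter, a replicate block and leaving out each library.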

Additional observations from a re-analysis of the deposited data

How the results depend on the processing

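Over 13 alternatives, none of the 91 fits of a subunit gene led to a call, with a smallest adjusted p of 0.410, and the direction held in 84 of them. The other 7 were fits of Grin2a, Grin2c or Grin2d. Grin2c was -0.00039 with DESeq2 size factors, -0.023 with libraries scaled by size alone and -0.00035 by the DESeq2 Wald test. When libraries were omitted singly, the log2 fold change lay between 0.026 and 0.20 for Grin1, -0.058 and 0.36 for Grin2a, 0.060 and 0.35 for Grin2b, -0.037 and 0.038 for Grin2c, -0.12 and 0.028 for Grin2d, 0.097 and 0.27 for Grin3a and 0.27 and 0.69 for Grin3b. The sign turned without the second ethanol library for Grin2a (-0.058), without the first control library for Grin2d (0.028) and Grin2c (-0.037), and without the third ethanol library for Grin2c (-0.021). The log2 differences of the ratios lay between -0.053 and 0.094 for Grin2b to Grin2a, -0.36 and 0.067 for Grin2c to Grin2a, -0.38 and 0.031 for Grin2d to Grin2a, 0.017 and 0.14 for Grin3a to Grin1 and -0.082 and 0.025 for all Grin2 genes to Grin1. The number of genes called, 0 by the quasi-likelihood test (753 at an unadjusted p below 0.05), was 77 by the likelihood ratio test (692), 75 by DESeq2 (646) and 0 by limma-voom (780). With a library left out it lay between 0 and 83. It was 83 without the third ethanol library and 4 without the first.

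Libraries with the same number hold different rats, and their deviations from the group means correlated by 0.0264, 0.388 and 0.211, so the numbers were not taken as pairs. With the replicate block, 0 genes were called (1015 at an unadjusted p below 0.05), and the log2 fold change was 0.090 for Grin1, 0.14 for Grin2a, 0.17 for Grin2b, 0.0031 for Grin2c, -0.026 for Grin2d, 0.17 for Grin3a (edgeR unadjusted p = 0.0433, adjusted p = 0.867) and 0.52 for Grin3b. Control 1 correlated with ethanol 3 by 0.305, so not every library correlated best with its own number. Depth limited only Grin3b, since the other 6 genes had at least 1466 counts in every library.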
